A study of Mus musculus with 20 samples.

Results

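The cerebellum of knock-in mice at 4 and 11 weeks of age is described here by 5 of the 20 arrays of the series, chosen by the short code in the sample titles that marks genotype, region and age. At 4 weeks there were 3 knock-in cerebellar arrays and at 11 weeks there were 2, and the later age, 11 weeks in the sample descriptions, is written as 12 weeks in the titles. Each array held total RNA of whole mouse cerebellum, the hindbrain structure that coordinates movement. Beside them stand wild-type cerebellum (3 arrays at 4 weeks and 2 at 11 weeks) and knock-in forebrain (3 and 2). Wild-type forebrain entered the estimate of spread and is otherwise given only for readings of single genes. The labels name neither the knocked-in allele nor strain, sex or treatment, and nothing in them ties a replicate to a mouse of its own. The spread behind every p-value here is therefore that between arrays of a group and may be technical. All 5 knock-in forebrain arrays carry cerebellum in the source field, and replicate 3 at 4 weeks carries it in the description as well, so they were grouped by the title code. The 2 wild-type forebrain arrays at 11 weeks are labelled cerebellum too. By their values the 5 knock-in arrays are forebrain, with Pcp2, a cerebellar gene, at 315 to 579 and Bcl11b, a forebrain gene, at 3472 to 5768.

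In the cerebellar cortex, Purkinje cells are the only output neurons, granule cells are the most numerous neurons, and Bergmann glia and oligodendrocytes support and myelinate them. Rodent cerebellum is still maturing in the weeks after weaning: myelin deposition passes its peak, and with it the demand for newly made cholesterol and galactolipid. Knock-in alleles are used to follow a mutant protein expressed from its own locus as the animal ages, and the comparison of ages asks which transcripts differ between the younger and the older mutant cerebellum. Because each age was one set of arrays, age and any batch that goes with it cannot be told apart.

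In knock-in cerebellum, 3 of 19 myelin genes, 2 of 19 cholesterol synthesis genes and 2 of 19 genes of meninges and matrix fell between 4 and 11 weeks. The other members of these lists did not pass the test. Over all 9105 genes 40 fell (0.439%), and the lists were chosen with earlier results of these data known, so these counts are not independent support. Gsn fell 2.99-fold, Ugt8a 2.75-fold and Mal 2.23-fold among myelin genes, and Hmgcs1 fell 2.10-fold and Cyp51 2.22-fold among cholesterol synthesis genes. Fewer genes rose, among them Polr2a, the largest subunit of RNA polymerase II, Fxyd6, a regulator of the sodium pump, and Stk10 and Tpd52l1, both dim at 4 weeks. The calls of Ugt8a, Mal, Hmgcs1, Cyp51, Polr2a and Fxyd6 depended on single arrays. In a fit of the 5 knock-in cerebellar arrays alone, no gene was called by limma. The difference in age change between genotypes passed the test for 2 genes of 9105, Tac1 and D430019H16Rik. In such whole tissue, fewer cells of a type and less RNA per cell cannot be told apart.

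The 5 arrays carried the markers of cerebellum. Pcp2, a Purkinje cell gene, was at 38010 to 52075, against 315 to 579 in knock-in forebrain, while Bcl11b, a forebrain gene, was at 24.0 to 31.9 against 3472 to 5768. The arrays had a common trimmed mean, and medians of all 20 arrays ran from 979 to 1180. The GAPDH 3'/5' ratio, a sign of RNA quality, was 0.828 to 0.850 in the younger and 0.848 and 0.903 in the older knock-in cerebellum. In a principal component analysis of the 10 cerebellar arrays, the first component (26.4% of variance) separated the genotypes and the second (16.5%) separated the ages. Markers of neighbouring tissue also moved with age. The summed intensity of 11 choroid plexus genes was 44858 to 92714 at 4 weeks and 112648 to 115427 at 11 weeks, replicate 1 at 4 weeks being the lowest. Most of that sum was 1 gene, Ttr, at 39451, 83972 and 82200 at 4 weeks and 97868 and 104928 at 11 weeks. The summed intensity of 17 brainstem and hindbrain genes was 11759 to 19190 at 4 weeks and 9817 to 10214 at 11 weeks. Hoxb5, a hindbrain gene, read 657 on replicate 2 at 4 weeks and 31.8 to 34.3 on the other 4 arrays. Whether these tissues contributed to the results was not tested.

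**Figure D1:**
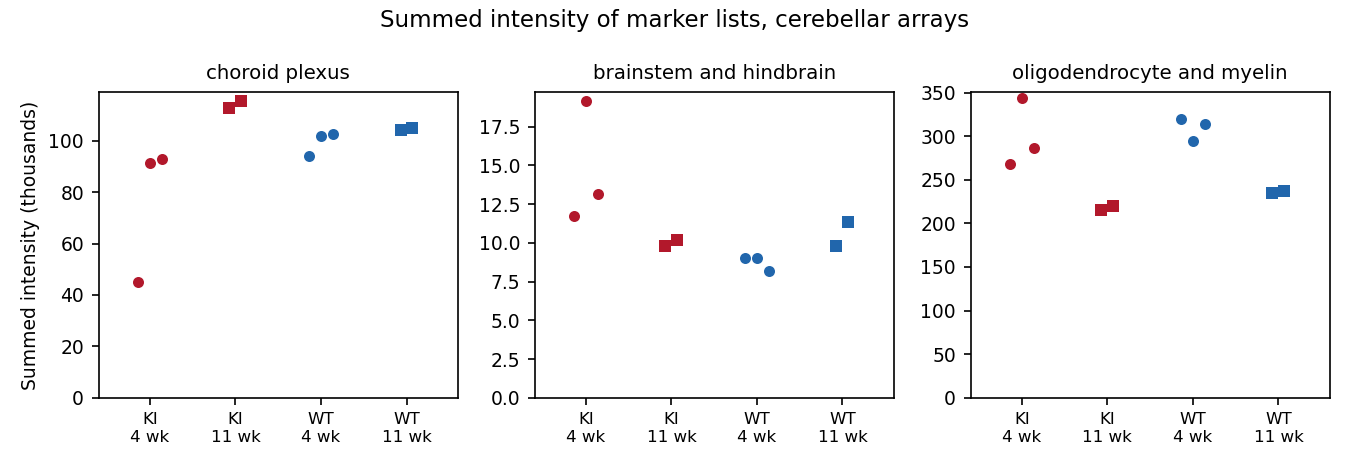
Summed intensity (in units of 1000, axis from 0) of the measured genes of 3 marker lists on the 10 cerebellar arrays, one point per array, by genotype (KI, knock-in, red; WT, wild type, blue) and age. Replicate 1 of knock-in cerebellum at 4 weeks is lowest for choroid plexus genes, the 3 knock-in arrays at 4 weeks are above the other 7 for hindbrain genes, and myelin genes are lower at 11 weeks in both genotypes.

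Of 9105 genes tested, 47 passed at an adjusted p under 0.05 and are called changed with age in knock-in cerebellum (0.516%). Called genes were mostly lower at 11 weeks: 40 fell (0.439%) and 7 rose (0.0769%). Without adjustment, a p under 0.05 was reached by 649 genes that were lower (7.13%) and 470 that were higher (5.16%), which is the background for the gene lists below. The median of all genes was -0.01 on the log2 scale. For all 47 called genes the arrays of the 2 ages did not overlap, as was also so for 1447 lower and 1277 higher genes among all those tested. The fitted fall was over 2-fold for 22 of the 40 genes and the fitted rise over 2-fold for 5 of the 7. In 20 called genes the dimmer age lay below the intensity limit of the filter (mean 681) on every array, so that the size depended on the offset of 16 added before taking logs.

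The count of called genes varied with the arrays in the fit: 7 passed in a fit of the 10 cerebellar arrays alone and 0 in a fit of the 5 knock-in cerebellar arrays alone, where 948 had an unadjusted p under 0.05 by limma. Leaving out replicate 1, 2 or 3 at 4 weeks gave 60, 48 and 17, and leaving out replicate 1 or 2 at 11 weeks gave 68 and 18. The 10 genes that passed without any 1 of the 5 arrays were Gsn, Gamt, Dhrs11, Necab3, Mybpc3, Tac1, Mal2 and D430019H16Rik, which fell, and Stk10 and Tpd52l1, which rose. All 47 kept their direction in each of these fits. Called genes outside these 10 failed in at least 1 of the 5. Below, mostly the fit without replicate 2 at 11 weeks is given. Many called genes, Cyp51, Gadd45b, Fbln2 and Col15a1 included, also failed when an array other than that one was left out.

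**Figure D2:**
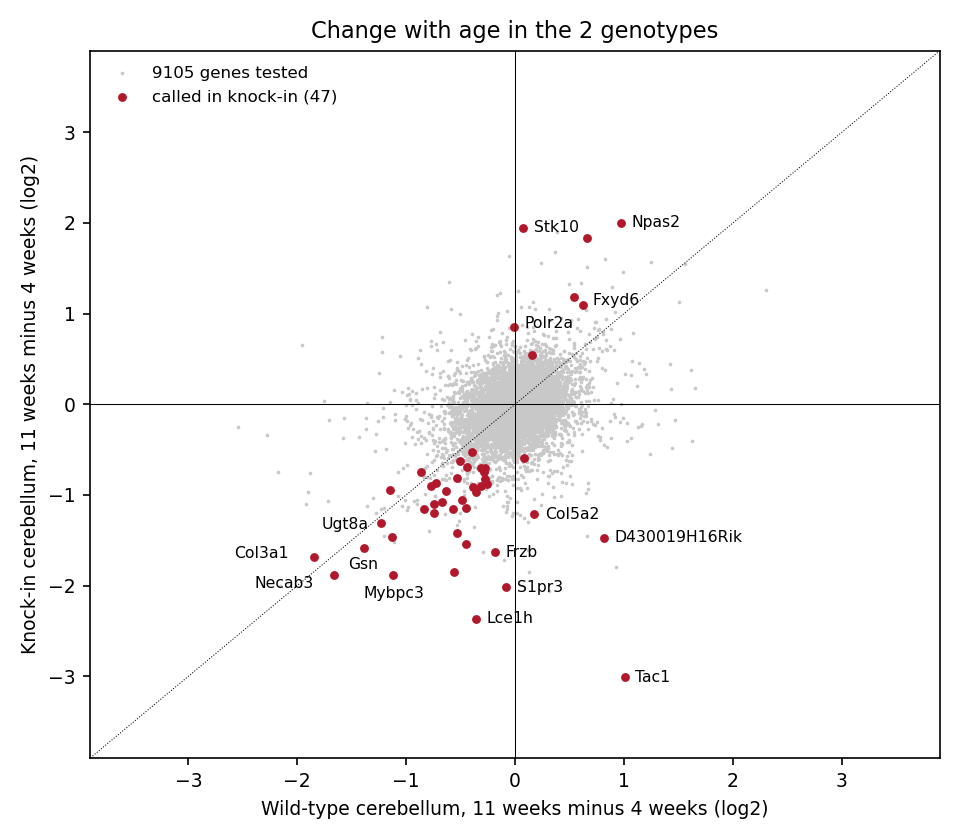
Change from 4 to 11 weeks (log2 difference) in knock-in cerebellum on the vertical axis against the change in wild-type cerebellum on the horizontal axis, one point per gene. Grey, all 9105 genes tested; red, the 47 called in knock-in cerebellum, of which 36 of the 40 that fell lie below 0 in wild type as well; the dotted line marks equal change, and Tac1 and D430019H16Rik lie to the right of 0.

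Of 19 genes of oligodendrocytes and myelin tested, 3 fell in knock-in cerebellum, 16 did not pass and 3 of those lay above 0. At the older age, 13 were lower at an unadjusted p under 0.05 against 7.13% of all genes, 1 was higher, and the median was -0.60 log2. Gsn, which encodes the actin-severing protein gelsolin and is abundant in myelinating oligodendrocytes, read 11947, 17184 and 14998 at 4 weeks and 5078 and 4640 at 11 weeks. The older arrays lay at less than the lowest younger one. The log2 change of Gsn was -1.58 ± 0.20 (SE of the model, adjusted p = 0.00136), and of its 3 other kept probe sets 2 were called, at -1.46 and -1.12, while 1 gave -0.75 (adjusted p = 0.526).

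Ugt8a, the galactosyltransferase that makes the main glycolipids of myelin, read 9352, 14195 and 12995 at 4 weeks and 4381 and 4313 at 11 weeks. Its log2 change was -1.46 ± 0.22 (adjusted p = 0.00537). Mal, a raft-associated proteolipid of compact myelin, read 18017, 20881 and 19638 and then 9023 and 8450, a log2 change of -1.16 ± 0.16 (adjusted p = 0.00280). For both genes the ages stood well apart, and for both a second probe set was called as well. Without replicate 2 at 11 weeks, neither passed (adjusted p = 0.0743 for Ugt8a and 0.0558 for Mal).

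The other myelin genes varied. Mog, a surface glycoprotein of the outer myelin sheath, differed by -1.15 (adjusted p = 0.0942), Cldn11, its tight junction protein, by -1.06 (0.0599), Fa2h, which hydroxylates myelin lipid chains, by -1.07 (0.0599), and Mobp, a basic protein of compact myelin, by -0.85 (0.0983). Of the 2 other Mobp probe sets 1 passed (-0.80, adjusted p = 0.0288) and 1 did not (-0.76, 0.106). Mbp, the major basic protein of myelin, read 60086, 72583 and 69333 at 4 weeks and 55198 and 59144 at 11 weeks, a difference of -0.23 (adjusted p = 0.436) with the older arrays both below the younger. Of 7 other kept Mbp probe sets none passed, 6 gave -0.31 to -1.04 (smallest adjusted p = 0.0612, at -0.92) and 1 gave 0.19. Olig1 and Sox10, transcription factors of the lineage, differed by -0.63 and -0.55 (adjusted p = 0.106 and 0.104). Apod, Qdpr and Plekhb1 had values above 0, at 0.42, 0.13 and 0.12. Of 7 genes of oligodendrocyte precursors none was called, and the list's median was -0.09.

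Outside that list, 3 called genes known from myelinating glia were picked out after their values were seen. Tspan2, a tetraspanin of oligodendrocytes, read 11794, 17758 and 18454 at 4 weeks and 7237 and 6462 at 11 weeks (log2 change -1.20 ± 0.20, adjusted p = 0.00919), and its 2 other probe sets were called as well, at -1.02 and -1.22. The 2 other kept probe sets of Lpar1, a receptor for lysophosphatidic acid, did not pass (-0.73 and -0.48, adjusted p = 0.304 and 0.320 by limma). Of these 3 genes, Gjc3, a connexin of myelinating glia, fell by 1.14 on the log2 scale and Lpar1 fell by 0.88. None of the 3 passed without replicate 2 at 11 weeks (adjusted p = 0.145, 0.388 and 0.371).

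In the other groups 16 of the 19 genes also had values below 0, with 1 called lower in wild-type cerebellum and 0 called in knock-in forebrain by limma. The list's median was -0.52 in wild-type cerebellum, where 14 of 19 were lower at an unadjusted p under 0.05 against 5.18% of all genes, and -0.52 in knock-in forebrain. The difference in age change between genotypes was called for 0 of the 19 genes by limma, the smallest adjusted p being 0.967.

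**Figure D3:**
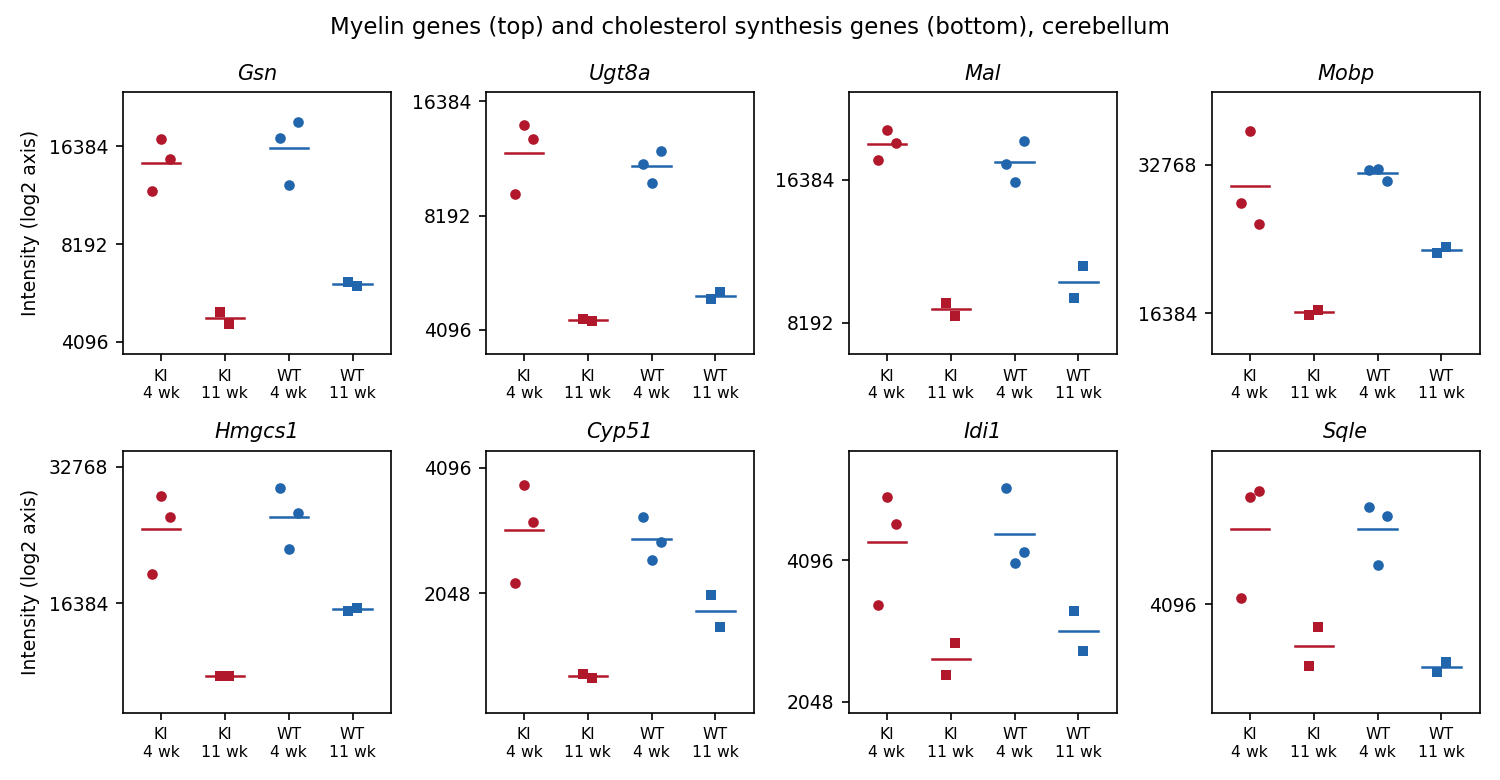
Intensity on each cerebellar array (log2 axis, one point per array, bars at the geometric mean) of 4 myelin genes and 4 cholesterol synthesis genes in knock-in (KI, red) and wild-type (WT, blue) mice at 4 and 11 weeks. In each panel the 2 knock-in arrays at 11 weeks lie below the 3 at 4 weeks; Gsn, Ugt8a, Mal, Hmgcs1 and Cyp51 were called, the plotted probe sets of Mobp, Idi1 and Sqle were not.

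The cholesterol synthesis pathway runs from acetyl-CoA through mevalonate, isoprenoids and squalene to the sterols, and its genes are switched on together by the sterol-sensing factor SREBP when cell sterol is low. Of 19 tested, 2 fell, 13 were lower at an unadjusted p under 0.05 against 7.13% of all genes, none was higher, and the median was -0.44 log2. To show what lies ahead of the start of the 2 called genes, the 250 bases upstream of the annotated start of each are printed from RefSeq (GRCm38.p6), 5′ to 3′ on the strand of the gene, with matches to TCACCNCA, the core of a sterol regulatory element, and to CCAAT, on either strand, in capitals. The Hmgcs1 stretch is chr13:119690101-119690350 on the plus strand and the Cyp51 stretch is chr5:4104698-4104947 on the minus strand.
Hmgcs1: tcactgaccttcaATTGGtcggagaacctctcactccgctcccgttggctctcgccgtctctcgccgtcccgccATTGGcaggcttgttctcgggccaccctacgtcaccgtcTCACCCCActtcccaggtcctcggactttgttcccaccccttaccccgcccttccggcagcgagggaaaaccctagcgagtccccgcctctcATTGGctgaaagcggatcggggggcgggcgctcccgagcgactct
Cyp51: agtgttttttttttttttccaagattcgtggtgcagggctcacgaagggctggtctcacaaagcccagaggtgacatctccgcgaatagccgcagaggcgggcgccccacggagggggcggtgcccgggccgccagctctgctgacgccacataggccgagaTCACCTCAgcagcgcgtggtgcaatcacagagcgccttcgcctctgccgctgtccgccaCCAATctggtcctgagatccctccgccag
Each stretch held 1 match to TCACCNCA, 137 bases before the start in Hmgcs1 and 88 in Cyp51, and Hmgcs1 held 3 matches to CCAAT and Cyp51 1. Among 32851 promoters of the table, 3.61% held the former and 33.8% the latter within the same 250 bases. Of 19 promoters of the 16 list genes found in the table, 4 held TCACCNCA and 16 held CCAAT. These matches describe letters and are not sites shown to be bound.

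Hmgcs1, which makes HMG-CoA, the substrate for mevalonate, read 18996, 28282 and 25431 at 4 weeks and 11355 on both arrays at 11 weeks, all below the younger arrays. Its log2 change was -1.07 ± 0.16 (adjusted p = 0.00537), and of its 3 other kept probe sets 1 was called, at -1.01 (adjusted p = 0.00413), while the other two gave -0.86 and -0.65 (0.0719 and 0.129). Cyp51, the lanosterol demethylase of the late pathway, read 2162, 3712 and 3040 at 4 weeks and 1311 and 1282 at 11 weeks, again without overlap. Its log2 change was -1.15 ± 0.20 (adjusted p = 0.0151). Without replicate 2 at 11 weeks neither passed (adjusted p = 0.0743 for Hmgcs1 and 0.155 for Cyp51).

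Most of the other members had values below 0 and did not pass. The early enzymes Idi1 (-0.82, adjusted p = 0.104), Mvd (-0.49, 0.225) and Pmvk (-0.50, 0.348) make the isoprenoid units, and Fdps (-0.56, 0.201) joins them. Sqle, which oxidises squalene, differed by -0.75 (0.148) and the late enzymes Dhcr7, Sc5d, Hsd17b7 and Nsdhl by -0.58, -0.39, -0.40 and -0.41 (adjusted p = 0.136 to 0.239). Srebf2, which encodes the sterol-regulated factor itself, read 7711, 6564 and 7686 at 4 weeks and 5693 and 5050 at 11 weeks, a difference of -0.44 (adjusted p = 0.247). Fdft1, Tm7sf2 and Stard4 had values of 0.03, 0.02 and 0.09. Wild-type cerebellum had a median of -0.41 for the 19 genes, with 9 lower at an unadjusted p under 0.05 against 5.18% of all genes, and none called. The median in knock-in forebrain was -0.07. No member passed the test of the genotype difference (smallest adjusted p = 0.879) or of the region difference by limma.

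Genes of meninges and extracellular matrix included 2 that fell of 19 tested, and 6 were lower at an unadjusted p under 0.05, against 7.13% of all genes; the list's median was -0.14. Col3a1, a fibrillar collagen chain, read 1178, 1368 and 1698 at 4 weeks and 462 and 388 at 11 weeks, below the filter limit on both later arrays, and was at least 2.04-fold lower (adjusted p = 0.00774). Col5a2, another fibrillar collagen chain, read 741, 624 and 848 and then 347 and 272, at least 1.07-fold lower when the dim arrays are raised to the limit (fitted log2 change -1.21 ± 0.20, adjusted p = 0.00933). Their wild-type values were unlike. Col3a1 was called lower there as well (-1.85), while Col5a2 had a value of 0.18, though the test of its genotype difference did not pass (-1.39 ± 0.28, adjusted p = 0.330). Col1a1 (-2.0, adjusted p = 0.136) and Col4a1 (-1.20, adjusted p = 0.0871) had large values with more spread. Without replicate 2 at 11 weeks the adjusted p was 0.134 for Col3a1 and 0.193 for Col5a2. Of markers of blood vessel cells, 0 of 17 were called by limma and 2 had an unadjusted p under 0.05, with a median of -0.21. Fbln2 and Col15a1, matrix proteins outside the list, were also called lower (-0.90 and -1.54).

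Activity-induced immediate early genes were mixed. Of 25 tested 2 fell, 7 were lower and none higher at an unadjusted p under 0.05 (background 7.13%), and the median was -0.14. In wild-type cerebellum the median was -0.26, with 4 lower and none higher at an unadjusted p under 0.05 (background 5.18%) and none called by limma. Nr4a1, an orphan nuclear receptor induced within minutes of stimulation, read 7172, 8058 and 8022 at 4 weeks and 4807 and 3991 at 11 weeks (-0.82 ± 0.15, adjusted p = 0.0181). Gadd45b, a stress- and activity-induced regulator of DNA demethylation, read 1699, 1955 and 1995 and then 894 and 1037 (-0.95 ± 0.18, adjusted p = 0.0288). Both genes had their ages apart, but neither passed without replicate 2 at 11 weeks (adjusted p = 0.358 and 0.134), and the 2 other probe sets of Gadd45b gave -0.49 and -0.45 (0.191 and 0.585). Fos and Egr1, the best-known members, differed by -0.19 and -0.21 (adjusted p = 0.811 and 0.795).

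Several called genes outside the groups above had large falls. Necab3, a neuronal calcium-binding protein, read 2956, 3677 and 4624 at 4 weeks and 918 and 1067 at 11 weeks, a log2 change of -1.88 ± 0.26 (adjusted p = 0.00259). Mybpc3, which encodes a cardiac myosin-binding protein and is bright in cerebellum here, read 6639, 6364 and 10664 and then 1973 and 2177 (-1.88 ± 0.23, adjusted p = 0.00136). The ages of both stood far apart. Nectin3, a synaptic and junctional adhesion molecule, fell by 1.31 on the log2 scale (adjusted p = 0.00408), and of its 3 other probe sets 1 was called (-1.29), while the other two gave -0.80 and -0.23 (0.130 and 0.805). Lce1h, a cornified envelope gene, read 3105, 969 and 2715 at 4 weeks and 372 and 383 at 11 weeks and was at least 2.93-fold lower. Frzb, a secreted Wnt antagonist, fell by 1.63, while its next brightest probe set gave 0.02 (adjusted p = 0.988), so that the call holds for one of its probe sets only. Without replicate 2 at 11 weeks, Nectin3, Lce1h and Frzb did not pass (adjusted p = 0.0730, 0.149 and 0.256).

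Genes of transport, excitability and metabolism were also among the called falls. Gamt, which completes creatine synthesis, read 1582, 2079 and 1637 at 4 weeks and 933 and 978 at 11 weeks (-0.87 ± 0.12, adjusted p = 0.00280). Scn3b, a sodium channel beta subunit, fell by 0.92 (adjusted p = 0.00919), Abcc8, the sulfonylurea receptor subunit of ATP-sensitive potassium channels, fell by 0.59 (0.0439), and Slc38a5, an amino acid transporter, fell by 0.95 (0.00559). Scn3b was the 1 called gene of 6 sodium channel genes tested, 3 of which were lower at an unadjusted p under 0.05, against 7.13% of all genes. Dhrs11, a short-chain dehydrogenase, read 2106, 2165 and 2718 and then 1232 and 1113 (-0.97 ± 0.12, adjusted p = 0.00136). Ackr1, a decoy receptor for chemokines, fell by 0.69 (adjusted p = 0.0329) from 22923 to 29863 at 4 weeks. Without replicate 2 at 11 weeks, adjusted p was 0.125 for Scn3b, 0.400 for Abcc8, 0.145 for Slc38a5 and 0.378 for Ackr1.

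Among 21 genes of astrocytes and Bergmann glia, 1 fell. Aqp4, the water channel of astrocyte endfeet, read 17487, 19049 and 17842 at 4 weeks and 12741 and 9686 at 11 weeks (-0.70 ± 0.15, adjusted p = 0.0439), while its next brightest probe set gave -0.18 (0.682) and without replicate 2 at 11 weeks its adjusted p was 0.560. Fabp7, a fatty acid carrier of immature glia, differed by -0.71 (adjusted p = 0.106), and Gjb6 and Aldh1a1 by 0.58 and 0.45 in the other direction (0.224 and 0.179). Gfap, the filament protein of reactive astrocytes, differed by 0.19 (adjusted p = 0.848), and its ages overlapped, at 5990 to 8150 and at 8036 and 8226. Of 17 microglial genes none was called by limma. C1qa, a complement gene of microglia, differed by 0.14 (adjusted p = 0.682).

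Genes that rose were few. Stk10, a serine/threonine kinase acting on membrane-linked ERM proteins, read 286, 261 and 468 at 4 weeks and 1699 and 1011 at 11 weeks. The younger arrays were below the filter limit, and the gene was at least 1.79-fold higher at 11 weeks (fitted log2 change 1.95 ± 0.26, adjusted p = 0.00252). Fxyd6 read 3720, 3570 and 2027 and then 6221 and 6632, with all older arrays above the younger (1.10 ± 0.21, adjusted p = 0.0274). Polr2a read 6400, 6806 and 4877 at 4 weeks and 10379 and 11159 at 11 weeks (0.85 ± 0.15, adjusted p = 0.0160). A second probe set of Polr2a gave 0.39 (adjusted p = 0.400). Pisd-ps3, annotated as a pseudogene of the phosphatidylserine decarboxylase gene and therefore uncertain, since probes can also read near-identical transcripts, rose by 0.54 (adjusted p = 0.0432). Fxyd6, Polr2a and Pisd-ps3 did not pass without replicate 2 at 11 weeks (adjusted p = 0.299, 0.211 and 0.373).

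The other 3 genes that rose were dim at both ages. Tpd52l1 read 77.6, 158 and 147 and then 462 and 493, and Npas2, a partner of the clock factor BMAL1, read 67.1, 62.8 and 54.2 and then 400 and 214, all below the filter limit, so no fold is given; the next brightest probe set of Npas2 gave -0.04 (adjusted p = 0.976). Tpbg, a membrane glycoprotein, read 251, 263 and 363 and then 640 and 713. Close to the threshold were Nbl1, an antagonist of bone morphogenetic proteins (0.79, adjusted p = 0.0502), Vsir, an immune checkpoint gene (0.85, 0.0578), Hnrnpl, a splicing regulator (0.71, 0.0599), and Ifit3, an interferon-induced gene (0.91, 0.0599). Nbl1 was called in wild-type cerebellum, where it was higher by 1.08.

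Cytosolic ribosomal protein genes had small values in one direction. All 20 tested lay above 0, 12 of them at an unadjusted p under 0.05 against 5.16% of all genes, none was called by limma, and medians were 0.33 (knock-in) and 0.15 (wild-type cerebellum). Rpl8, a protein of the large subunit, read 9904, 12178 and 8736 at 4 weeks and 13280 and 16883 at 11 weeks (0.56 ± 0.16, adjusted p = 0.162). The values rested in part on replicate 2 at 11 weeks, without which the median was 0.13, and without replicate 1 it was 0.49. The 27 proteasome genes and 29 oxidative phosphorylation genes had medians of 0.06 each, with none at an unadjusted p under 0.05.

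Choroid plexus genes also had higher values, 10 of 11 above 0, 3 at an unadjusted p under 0.05 and none called, with a median of 0.62 in knock-in and 0.69 in wild-type cerebellum. Ttr, the thyroxine carrier secreted by choroid plexus, read 39451, 83972 and 82200 at 4 weeks and 97868 and 104928 at 11 weeks (adjusted p = 0.883). Its pooled spread includes forebrain arrays that read from 1086 to 25269, so that p-value says little about cerebellum. Kl, the klotho gene, differed by 1.30 (adjusted p = 0.126), from 549, 960 and 1276 to 2584 and 1833. Of 15 antigen presentation and interferon genes 4 were higher at an unadjusted p under 0.05 (Ifit3, Gbp3, Cd74 and Ifitm3), against 5.16% of all genes. None of the 15 was called by limma, and the median was 0.27 against 0.30 in wild type. Gbp3, an interferon-induced GTPase, read 370, 449 and 361 at 4 weeks and 815 and 867 at 11 weeks, against a value of -0.81 in wild type, without passing the genotype test (smallest adjusted p in the list 0.495).

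**Figure D4:**
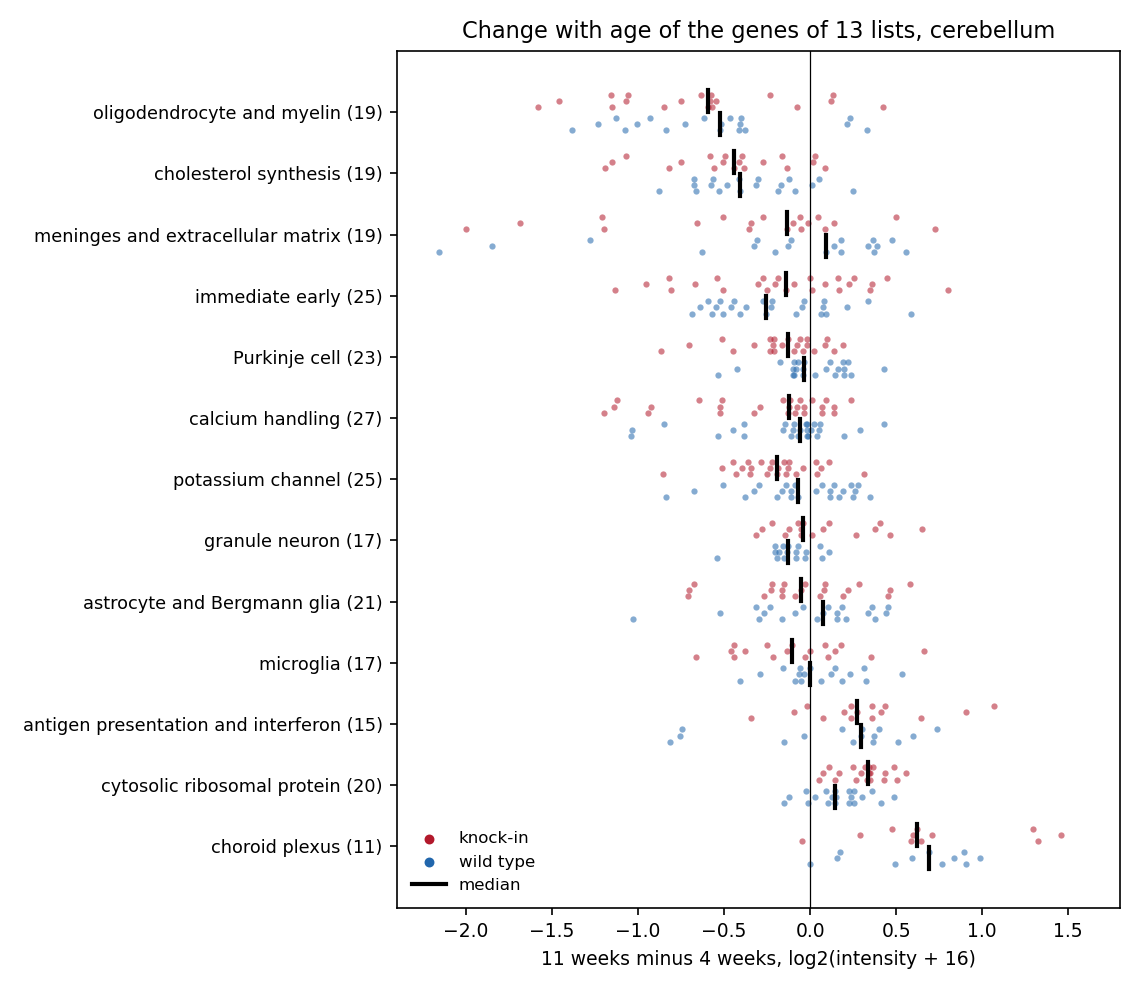
Log2 difference between 11 and 4 weeks of each tested gene of 13 lists (number of genes in parentheses) in knock-in (red, upper strip) and wild-type (blue, lower strip) cerebellum; black bars mark medians. The medians of myelin genes (-0.60 and -0.52) and cholesterol synthesis genes (-0.44 and -0.41) lie below 0 in both genotypes, those of choroid plexus genes (0.62 and 0.69) above it.

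Purkinje and granule cell genes were not called. Of 23 Purkinje cell genes, 18 lay below 0 and 4 were lower at an unadjusted p under 0.05 against 7.13% of all genes, and the list's medians were -0.13 (knock-in) and -0.03 (wild type). Those 4 were Cacna1g, a T-type calcium channel (-0.51, adjusted p = 0.104), Gria3, an AMPA receptor subunit (-0.70, 0.122), Plcb4, the phospholipase of the metabotropic glutamate pathway (-0.86, 0.257), and Kcnma1, the large-conductance potassium channel (-0.45, 0.260). Plcb4 read 8672, 7446 and 8762 at 4 weeks and 6921 and 2968 at 11 weeks, so replicate 2 was far below replicate 1 at the later age. Cacna1g read 8995, 7980 and 9444 and then 6584 and 5746, without overlap. Of the 23 genes, 10 were lower without overlap of the ages and 0 were higher, against 1447 and 1277 of all 9105 genes. Their summed intensity in knock-in was 487463 to 494163 at 4 weeks and 436747 to 461442 at 11 weeks. In wild type the sums overlapped, at 524764 to 551793 and 532323 to 549606. No member passed the test of the genotype difference by limma (smallest adjusted p = 0.789). Pcp2 differed by -0.21 and Calb1, the calcium buffer calbindin, by -0.06 (adjusted p = 0.931 and 0.883). Among 17 granule neuron genes, with a median of -0.04, Gabra6, a GABA receptor subunit of granule cells, differed by 0.11 (adjusted p = 0.975).

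The wider excitability lists had no called member apart from Scn3b. Of 27 calcium handling genes 7 were lower at an unadjusted p under 0.05, against 7.13% of all genes. Among them were Camk4, a nuclear calmodulin kinase (-1.14, adjusted p = 0.115), and Cacna1h (-1.20, 0.0871), the latter below the filter limit on all 5 arrays. Of 25 potassium channel genes 5 were lower and 1 higher (background 7.13% and 5.16%), with a median of -0.19 against -0.07 in wild type. Among 15 ionotropic glutamate receptor genes 5 were lower (background 7.13%), of which Grik2 and Gria4 differed by -0.55 and -0.67 (adjusted p = 0.142 and 0.101). In wild-type cerebellum 4, 3 and 2 genes of these 3 lists were lower at an unadjusted p under 0.05 (background 5.18%). There, 1, 1 and 0 were higher (background 4.73%). No member of these 3 lists passed the test of the difference between genotypes by limma (smallest adjusted p = 0.789, 0.656 and 0.789).

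Set beside wild type, the falls were mostly in the same direction. Of the 40 genes that fell in knock-in cerebellum, 36 were below 0 in wild-type cerebellum, 26 of them at an unadjusted p under 0.05 and 7 called, with medians of -1.09 in knock-in and -0.50 in wild type. Of the 7 that rose, 6 were above 0 in wild type and none was called there. The share of genes with the same sign in both genotypes was 60.5% over all 9105 genes. Wild-type cerebellum had 18 called genes of its own (0.198%), 14 lower (0.154%) and 4 higher (0.0439%), with 472 lower (5.18%) and 431 higher (4.73%) at an unadjusted p under 0.05. The 7 called in both were Gsn, Gamt, Col3a1, Necab3, Nectin3, Ribc1 and Slc38a5, which is 14.9% of the knock-in and 38.9% of the wild-type calls. All 14 wild-type falls were below 0 in knock-in, with medians of -1.20 in wild type and -0.80 in knock-in. The changes of all genes in the 2 genotypes, which share no arrays, correlated with r = 0.325 (Spearman rho 0.300) across 9105 genes, which are not independent replicates. A gene's larger value in one genotype is chosen for in such sets, so the medians are no test of a difference.

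The test of that difference passed for 2 genes (0.022%), and both were lower in knock-in. Tac1, the precursor of substance P and neurokinin A, read 459, 1069 and 864 in knock-in cerebellum at 4 weeks and 64.7 and 96.1 at 11 weeks, and 123, 302 and 153 in wild type at 4 weeks and 299 and 477 at 11 weeks. The older knock-in arrays were below all others, the younger ones were above all others except that replicate 1 lay under the brighter older wild-type array, and of these 10 arrays only knock-in replicates 2 and 3 at 4 weeks were above the filter limit. The change was -3.01 ± 0.35 in knock-in (adjusted p = 0.00127) and 1.01 ± 0.35 in wild type (0.315), a difference of -4.02 ± 0.49 (adjusted p = 0.00530). With dim arrays raised to the limit, Tac1 was at least 1.09-fold lower at 11 weeks in knock-in. Tac1 is one of the hindbrain genes whose summed level was also higher in knock-in at 4 weeks (11759 to 19190) than in wild type (8153 to 9052). It is counted in that sum. Tac1 also stands in the forebrain neuron list, whose sum was likewise higher in knock-in at 4 weeks (17462 to 19497 against 14671 to 17036). Hoxb2, a hindbrain gene, was higher in knock-in cerebellum at 4 weeks (909 to 1200 against 416 to 693) and at 11 weeks (779 and 698 against 473 and 488). On the 5 knock-in forebrain arrays Hoxb2 read 761 to 1012, against 636 to 650 on the wild-type forebrain arrays, so it was higher in knock-in in both regions. Whether neighbouring tissue bears on Tac1 was not tested. In a fit of the 10 cerebellar arrays alone the difference for Tac1 did not pass (adjusted p = 0.252).

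D430019H16Rik, named here although its levels are below the intensity set for naming genes, read 464, 622 and 682 at 4 weeks and 192 and 208 at 11 weeks in knock-in, and 260, 365 and 283 and then 395 and 738 in wild type. The knock-in ages stood apart with the older lower, and the wild-type ages stood apart the other way. All 5 knock-in arrays were below the filter limit, so no fold is given and the size of the fitted difference depends on the offset. The fitted log2 difference was -2.29 ± 0.31 (adjusted p = 0.00862), and it did not pass without knock-in replicate 2 at 11 weeks (0.0615) or in the 10 cerebellar arrays alone (0.273). Stk10 came next among those named, with a difference of 1.87 ± 0.37 (adjusted p = 0.320). In wild type it read 675, 765 and 883 at 4 weeks and 597 and 1102 at 11 weeks, above every younger knock-in array and overlapping the older ones. Cd160, an immune receptor gene, was called lower in wild type (-2.28) and differed by -0.33 in knock-in, a difference between genotypes of 1.94 that did not pass (adjusted p = 0.401).

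**Figure D5:**
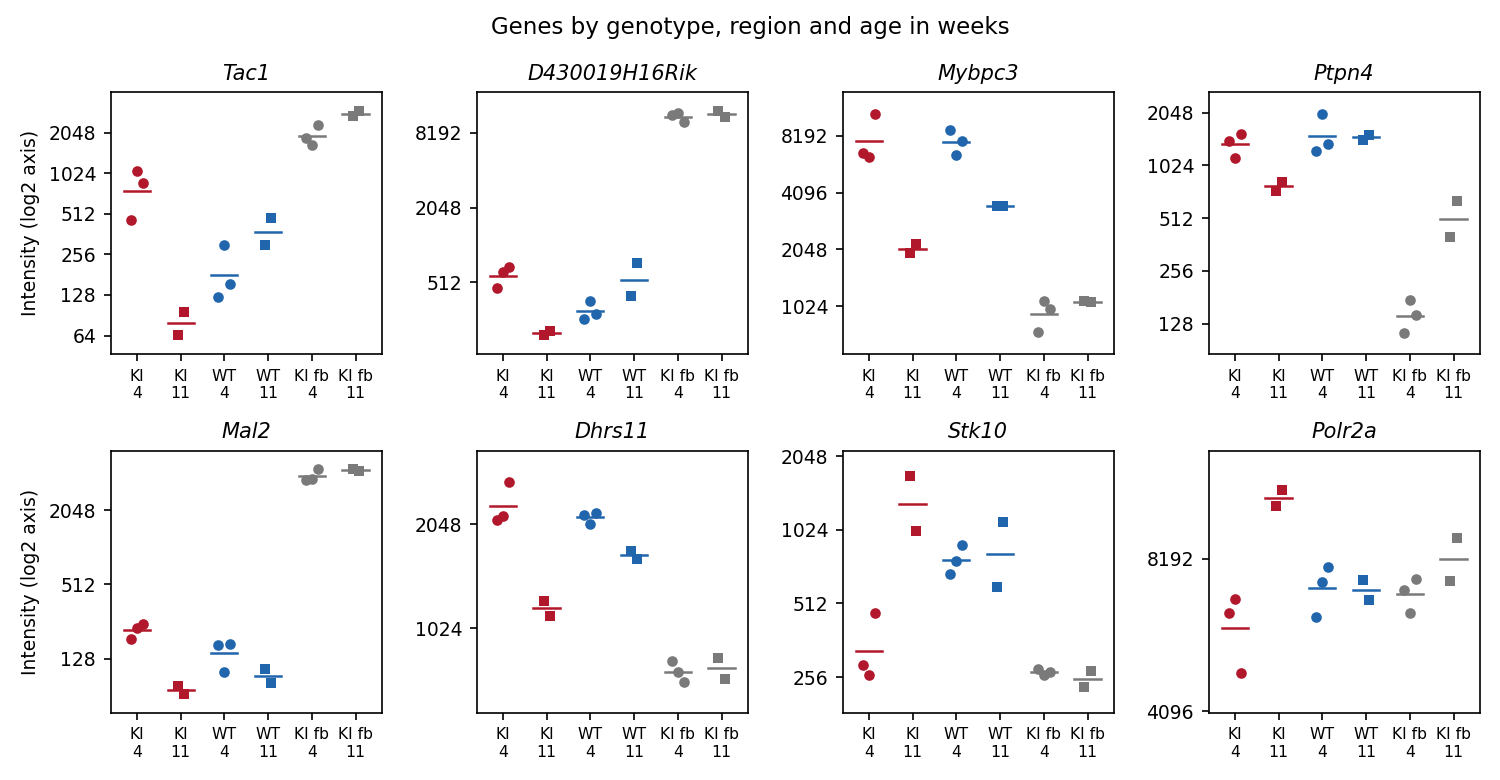
Intensity on each array (log2 axis, one point per array, bars at the geometric mean) of 8 genes in knock-in cerebellum (KI, red), wild-type cerebellum (WT, blue) and knock-in forebrain (KI fb, grey) at 4 (circles) and 11 weeks (squares). Tac1 and D430019H16Rik are lower with age in knock-in and higher in wild-type cerebellum; Mybpc3, Mal2 and Dhrs11 are lower with age in knock-in cerebellum and not in knock-in forebrain; Ptpn4 is higher with age in knock-in forebrain.

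Forebrain of the same genotype gave a further comparison, with 1 gene called (0.011%): Ptpn4, a tyrosine phosphatase of neurons, was higher at 11 weeks by 1.73 (adjusted p = 0.0365). Ptpn4 was below the filter limit on all 5 knock-in forebrain arrays, so this size depends on the offset. Cyclic loess normalization called 1 gene higher and 1 lower in knock-in forebrain. Of the 40 genes that fell in knock-in cerebellum, 26 were below 0 in knock-in forebrain, 15 of them at an unadjusted p under 0.05, with a median of -0.21. Gsn, Ugt8a, Tspan2 and Col3a1 were among those with large values there (-1.26, -1.28, -1.15 and -1.39, adjusted p = 0.0550 to 0.0930), whereas Hmgcs1 and Cyp51 had -0.23 and 0.05. Across all genes the changes in the 2 regions correlated with r = 0.325 (Spearman rho 0.360). Without replicate 3 at 4 weeks, the forebrain array whose description names cerebellum, 5 genes were called in forebrain.

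The age change differed between regions for 5 genes (0.0549%), all lower in cerebellum: Tac1 (-3.55 ± 0.49), Ptpn4 (-2.52 ± 0.35), Mybpc3 (-2.09 ± 0.32), Mal2 (-1.58 ± 0.25) and Dhrs11 (-1.0 ± 0.17), with adjusted p from 0.0131 to 0.0466. Quantile normalization gave 4 lower and 2 higher, and cyclic loess 5 lower and 2 higher. Mybpc3 read 748 to 1093 on the 5 knock-in forebrain arrays, where the ages overlapped, against the clear fall in cerebellum. Mal2, a vesicle transport protein, was dim in cerebellum, at 186, 227 and 242 and then 77.2 and 66.0, and bright in forebrain, at 3554 to 4386. Ptpn4 in cerebellum read 1416, 1124 and 1553 at 4 weeks and 735 and 820 at 11 weeks (-0.79, adjusted p = 0.201), and in forebrain 114, 174 and 143 and then 402 and 643. All these forebrain values were below the filter limit, so the size of the Ptpn4 region difference depends on the offset. None of the 5 passed without knock-in cerebellum replicate 1 or replicate 2 at 11 weeks, or without knock-in forebrain replicate 2 at 11 weeks, where no gene was called by limma and 549, 389 and 445 had an unadjusted p under 0.05. Without the array whose description names cerebellum, all but Dhrs11 passed.

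Genes tied to inherited ataxias showed no called change. Igfbp5, a binding protein of insulin-like growth factors that was chosen with earlier results known, read 4711, 6055 and 7702 at 4 weeks and 3516 and 3816 at 11 weeks, a difference of -0.72 ± 0.20 (adjusted p = 0.133) without overlap of the ages, and 9250 to 11461 on the 5 wild-type arrays, all above the knock-in ones. Its change did not differ between genotypes by the test (-0.49 ± 0.28, adjusted p = 0.934). Atxn7 read 75.4 to 717 at 4 weeks and 425 and 166 at 11 weeks (adjusted p = 0.927), and the single Atxn1 probe set, at 35.9 to 110 on all 20 arrays, was removed by the filter. Of 12 Capicua target and Ras feedback genes and 18 genes of polyglutamine disease and ataxin-1 partners, none was called by limma, and medians were 0.03 and 0.04. The clock output genes Dbp and Per1, which follow the time of day, differed by 0.00 and -0.14 (adjusted p = 0.997 and 0.765).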

How the data were processed

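Total RNA from cerebellum and forebrain was measured on 20 single-channel oligonucleotide arrays, 5 of them of knock-in cerebellum. The deposited values are linear intensities of probe sets. Their 2% trimmed means, 2500.59 to 2500.75, show that the authors scaled the arrays to a common level; the software is not given in the sources used here. Of 22690 probe sets, 64 are controls and 20380 name 1 gene, 691 several and 1555 none in the annotation used; 20351 were matched to RefSeq genes. From these, log2(intensity + 16) was taken. Probe sets were kept (15627) if 2 or more arrays exceeded their own 40th percentile, and each gene was represented by its brightest one, giving 9105 genes. This offset understates the change of dim genes. No detection call was used, and the number of arrays limits the precision.

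With limma 3.58.1 in R 4.3.3 and the data.table package (version 1.17.8), all 20 arrays entered a model of 8 group means, with 12 residual and 3.40 prior degrees of freedom. Every adjusted p is from limma, two-sided, with Benjamini-Hochberg adjustment over all genes, while other probe sets of a gene take theirs from a fit of all kept probe sets. The threshold for a call was 0.05. A log2 value is given ± its standard error. "At least" folds raise dim arrays to the filter limit. Named genes are, with an intensity above the mean filter limit, the 14 largest called rises and falls, the 8 rises with the smallest p, the 6 largest called differences each way (or the 4 with the smallest p), then called list members, and Igfbp5, Atxn1, Atxn7 and defining markers; others were added after their values were seen. The 41 gene lists hold 824 genes, of which 619 were tested. The members and lists were chosen with earlier results of these data known. The fit was tested on simulated data. Alternatives changed the offset, filter, normalization, probe sets per gene, variance model, arrays in the fit and the use of replicate numbers, and left out each array in turn.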

Additional observations from a re-analysis of the deposited data

Results flagged for a closer look

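The following results passed a test of a difference between groups. The change from 4 to 11 weeks in cerebellum differed between knock-in and wild type for Tac1 by -4.02 (adjusted p = 0.00530) and for D430019H16Rik by -2.29 (adjusted p = 0.00862), by limma's interaction contrast over all 20 arrays. All 5 knock-in arrays of D430019H16Rik were below the filter limit, so its size depends on the offset. For both genes, every knock-in array was lower at 11 than at 4 weeks, while wild-type values for D430019H16Rik were all higher at 11 weeks. The change in knock-in mice differed between cerebellum and forebrain for Tac1 by -3.55 (adjusted p = 0.0131), for Ptpn4 by -2.52 (0.0131), for Mybpc3 by -2.09 (0.0264), for Mal2 by -1.58 (0.0332) and for Dhrs11 by -1.0 (0.0466), again by limma. Ptpn4 was below the filter limit on all 5 knock-in forebrain arrays, so the size of its difference depends on the offset too. Groups of 2 and 3 arrays were too small for a test of single arrays standing apart.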

How the results depend on the processing

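The 47 calls in knock-in cerebellum became 87 with all kept probe sets tested, 77 with an intensity trend in the variance, 18 with the replicate block, 7 in the 10 cerebellar arrays and 0 in the 5 knock-in cerebellar arrays (948 at an unadjusted p under 0.05 by limma), and 17 to 68 when 1 array was left out. The wild-type count of 18 became 31, 28, 6 and 6 with all probe sets, the trend, the replicate block and the 10 cerebellar arrays, and 10 to 33 with 1 array left out. The 2 genotype differences became 4 with all probe sets, 0 in the 10 cerebellar arrays (528 unadjusted, limma) and 1 to 5 with 1 array left out. The forebrain count of 1 became 6 with an offset of 64, 0 without a filter, 2 with the filter on 5 arrays, 2 with cyclic loess, 10 with all probe sets, 10 with the trend, 0 with the replicate block, 0 in the 10 knock-in arrays (1192, 916 and 1102 unadjusted for the counts of 0, limma) and 1 to 10 with 1 array left out. The 5 region differences became 3 with an offset of 64, 2 without a filter, 10 with the filter on 5 arrays, 10 with the trend, 2 with the replicate block, 0 in the 10 knock-in arrays (536 unadjusted, limma) and 0 to 11 with 1 array left out. Where 1 array remained in a group, it was assumed to vary like the other groups. The causes were not tested, beyond the fewer arrays in the smaller fits.

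Same-numbered arrays of the 2 ages correlated by 0.03 and 0.07 in their deviations from the knock-in group means. With 2 arrays at 11 weeks, whose deviations mirror each other, these values cannot decide whether the numbers pair the samples. Sign changes occurred for 2 called genes, Frzb and Npas2, under another probe set, and for uncalled values of Calb1, Dbp, Atxn7, Vsir and Gabra6. With 1 array left out, Calb1 ran from -0.179 to 0.0605, Dbp from -0.131 to 0.161 and Atxn7 from -1.27 to 0.336, and Dbp was -0.0144 with cyclic loess and -0.121 with the replicate block. The next brightest probe set gave -0.111 for Vsir, 0.0177 for Frzb, -0.0404 for Npas2 and -0.00333 for Gabra6. Of the other values for single genes, 880 kept their side of the threshold, 315 lost it and 16 gained it. Of the list medians, 581 moved by less than the spread between arrays and 59 by more.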
